A study of Homo sapiens with 6 samples.

Results

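SWI/SNF chromatin remodelling subunits were examined in RNA-seq data of VprBP-depleted and control cells. The 10 genes SMARCA4, SMARCA2, SMARCB1, SMARCC1, SMARCC2, SMARCD1, SMARCD3, ARID1A, ARID1B and PBRM1 were taken from the count table by their names. All 10 were found among the 21494 genes of the table, and all 10 passed the filter on low counts that left 16756 genes for testing. The labels describe G361, a human melanoma cell line. Control sh holds 3 samples with the genotype WT and a control shRNA, and VprBP sh holds 3 samples with the genotype DCAF1 Knockdown, DCAF1 being the gene of VprBP. Per the study's methods, an shRNA against the coding region of VprBP was delivered by lentivirus and the infected cells were kept under puromycin.

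SWI/SNF complexes are large assemblies that use the energy of ATP to slide or evict nucleosomes, opening promoters and enhancers to transcription factors. Each complex carries a single ATPase, SMARCA4 (BRG1) or SMARCA2 (BRM), together with SMARCC and SMARCD proteins, and most forms also hold SMARCB1 and SMARCE1, which the non-canonical form lacks. ARID1A or ARID1B mark the canonical BAF complex, PBRM1 together with ARID2, BRD7 and PHF10 marks PBAF, and BRD9 with BICRA or BICRAL marks the non-canonical form. Subunit genes are often mutated or silenced in cancer, melanoma included, and several of the slots can be filled by either of a pair of paralogues.

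Library totals ran from 18195926 to 26883925 counts and overlapped between the groups. DCAF1, the gene targeted by the shRNA, had raw counts of 688, 893 and 884 in Control sh replicates 1, 2 and 3 and of 681, 488 and 628 in VprBP sh, a log2 fold change of -0.58 (SE 0.17, adjusted p = 0.0125). It ranged from -0.82 without VprBP sh replicate 1 to -0.46 without VprBP sh replicate 3. It missed the threshold with library size as the only scaling (-0.37, adjusted p = 0.0851 from edgeR) and with replicates 2 and 3 summed (-0.46, adjusted p = 0.0839 from edgeR). The cells were checked against markers, because the labels also carry the name LD611 as the source. Of 7 melanocyte-lineage markers, MITF had 154 to 312 counts in the 6 samples, PMEL had 28 to 46, MLANA had at most 5 counts and TYRP1 at most 4. SOX10, TYR and DCT were looked up and were absent from the count table, in which the smallest sum over the 6 samples was 10. The melanocyte-lineage markers present summed to between 199.1 and 236.4 normalized counts per Control sh sample and to between 244.2 and 308.2 per VprBP sh sample. Of 10 urothelial markers, 8 were in the count table, while KRT20 and UPK3A were absent from it. The sum of the 8 lay between 103912 and 113556 normalized counts in Control sh and between 25098 and 28548 in VprBP sh. KRT5, a basal keratin of that list, had group means of 64989 (Control sh) and 3488 (VprBP sh) normalized counts, and KRT7 had 35085 and 21576. These keratins made up most of the sum in both groups. UPK2 went from 211 in Control sh to 43.6 in VprBP sh, PPARG rose from 277 to 726, and UPK1A had at most 5 counts per sample. TP63, a basal epithelial factor, had between 7670 and 8806 counts per Control sh sample and between 8 and 13 per VprBP sh sample, UPK1B had 0 counts in every VprBP sh sample, and GATA3 went from at most 7 counts to at least 1334. The mitochondrial share of counts was between 1.96% and 1.99% in Control sh and between 4.10% and 4.48% in VprBP sh. Low or absent melanocyte-lineage markers beside abundant KRT5 and KRT7 do not bear out the label of a melanoma line. The markers do not settle which cells the libraries hold. The part of these differences in the values of the subunits was not tested, and the shRNA and any other difference between the groups cannot be told apart. Replicates 2 and 3 of each group lay closer together (chi-square per degree of freedom 2.45 and 2.32) than either did to replicate 1 (16.1 to 26.6). Nothing in the labels says that replicates came from separate cultures, so p-values measure only the spread between these samples.

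Promoter sequences of 4 subunits are shown because they belong to slots whose paralogues had unlike fold changes, SMARCA4 beside SMARCA2 and SMARCD3 beside SMARCD1. SMARCC1 and SMARCC2 also had unlike fold changes, and their windows are not shown. Each run is 250 bases before and 50 bases from the transcript start on the gene's strand, taken from RefSeq on GRCh38.p14, at the start that the canonical GENCODE 44 transcript uses. The windows are chr19:10960780-10961079 on the plus strand for SMARCA4, chr9:2015097-2015396 on the plus strand for SMARCA2, chr12:50085092-50085391 on the plus strand for SMARCD1 and chr7:151248645-151248944 on the minus strand for SMARCD3. Capitals mark GGGCGG, the GC box bound by Sp1-family factors, read on either strand.
SMARCA4: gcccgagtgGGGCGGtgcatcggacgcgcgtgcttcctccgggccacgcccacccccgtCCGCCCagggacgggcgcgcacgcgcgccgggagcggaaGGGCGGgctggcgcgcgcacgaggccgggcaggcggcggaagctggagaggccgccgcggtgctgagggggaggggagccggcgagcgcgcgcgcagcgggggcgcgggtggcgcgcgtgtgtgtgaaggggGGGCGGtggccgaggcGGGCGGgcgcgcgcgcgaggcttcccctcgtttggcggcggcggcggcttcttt
SMARCA2: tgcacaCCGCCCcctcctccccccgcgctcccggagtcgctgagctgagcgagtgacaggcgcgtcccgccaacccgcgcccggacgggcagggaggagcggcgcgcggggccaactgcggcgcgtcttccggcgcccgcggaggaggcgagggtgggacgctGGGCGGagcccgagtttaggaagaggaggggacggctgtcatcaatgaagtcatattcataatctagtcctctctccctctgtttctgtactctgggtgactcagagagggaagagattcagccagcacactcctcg
SMARCD1: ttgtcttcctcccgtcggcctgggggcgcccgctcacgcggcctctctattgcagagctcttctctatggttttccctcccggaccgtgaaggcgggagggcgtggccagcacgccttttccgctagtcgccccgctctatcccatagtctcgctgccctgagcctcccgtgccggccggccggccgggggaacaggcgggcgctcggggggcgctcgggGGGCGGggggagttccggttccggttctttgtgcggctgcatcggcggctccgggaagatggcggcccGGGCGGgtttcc
SMARCD3: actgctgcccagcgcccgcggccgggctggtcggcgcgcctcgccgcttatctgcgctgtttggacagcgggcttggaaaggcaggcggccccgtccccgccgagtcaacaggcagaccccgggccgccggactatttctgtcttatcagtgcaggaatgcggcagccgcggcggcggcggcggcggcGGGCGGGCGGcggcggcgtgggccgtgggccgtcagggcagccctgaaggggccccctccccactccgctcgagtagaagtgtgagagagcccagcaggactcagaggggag
The window of SMARCA4 held 5 GC boxes and had a GC content of 81.3%, and that of SMARCA2 held 2 at 66.7%. SMARCD1 and SMARCD3 held 2 each, at 71.3% and 73.3%. RefSeq windows were matched for 8 of the 10 members, 16 windows in all. GGGCGG occurred in 10 of the 16 windows and in 45.0% of all 35116 windows of the same length. Each of the 8 genes had it in at least 1 window, and no share per gene was worked out over all genes. The median GC content was 66.3% over the 16 windows and 58.7% over all. CACGTG, the E-box, was found in 1 of the 16 windows (PBRM1) and in 7.26% of all, and TATAAA in 1 (a downstream start of SMARCA2) and in 11.5% of all. The letters CCGGAAGT, an ETS-type sequence, and GCATGCGC, an NRF1-type sequence, were in 0 of the 16 windows, against 4.14% and 3.05% of all, each searched on both strands.

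Transcripts of SMARCA4 and SMARCD3 were over 2-fold higher in VprBP sh than in Control sh, 6 further members changed by less than 2-fold, and SMARCA2 and SMARCC2 did not pass the test. To be called, a gene needed a fold change over 2 and a p-value under 0.05 in edgeR's quasi-likelihood test, after Benjamini-Hochberg adjustment over all genes tested. By this rule 2 of the 10 members were called, both higher in VprBP sh. Over all genes tested the rule called 46.4%, with 24.5% higher and 22% lower. At any fold, 8 members passed the adjusted p-value, 7 of them higher and 1 lower, against 76.4% of all genes. In 9 members the 3 values of a group lay apart from the 3 values of the other, as they did in 79.5% of all genes. The median log2 fold change was 0.52 over the members and 0.08 over all genes, and the median absolute log2 fold change was 0.56 and 0.92. In these bulk samples fewer cells of a type and less RNA per cell cannot be told apart. Most members are abundant transcripts, SMARCD3 being the exception. With limits chosen after the values were seen, 39.2% of the 12133 genes averaging 100 normalized counts or more were called (median absolute log2 fold change 0.76), as were 33.1% of the 5343 genes averaging 1000 or more (0.67). No test was made of the members against these shares, and nothing is read from 2 calls among 10 genes.

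**Figure D1:**
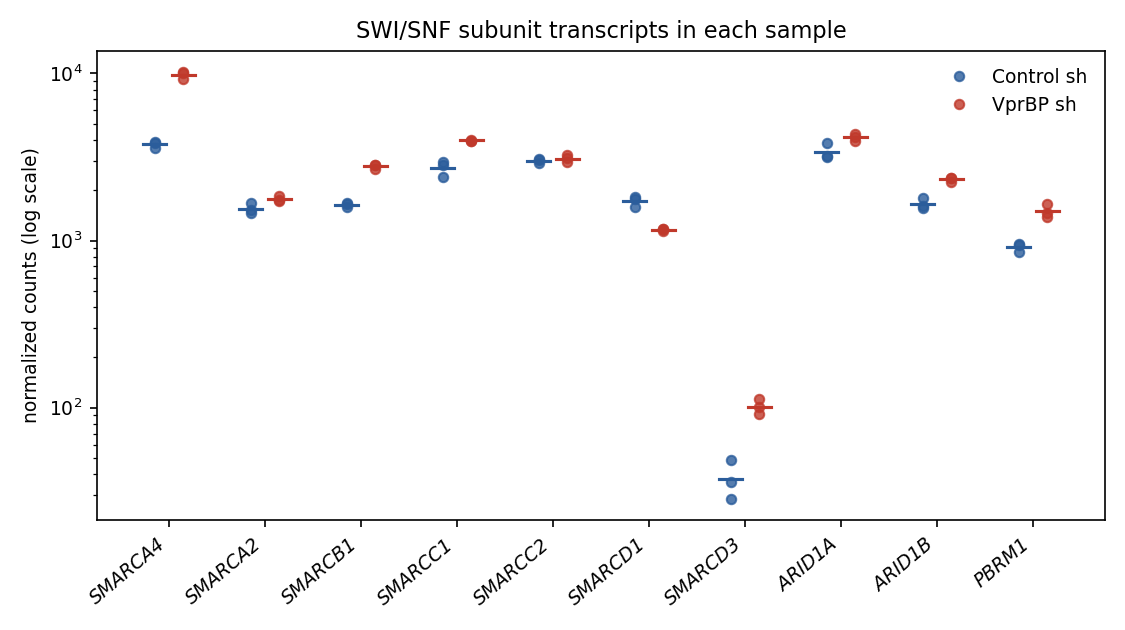
Normalized counts on a log axis for the 10 members, with a point for each of the 3 Control sh and 3 VprBP sh samples and a bar at each group mean. The groups lie apart for every member except SMARCC2, SMARCD1 is the member that is lower in VprBP sh, and SMARCD3 lies far below the others at 28.44 to 112.2 normalized counts.

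The ATPases were examined first, since they drive the remodelling reaction. SMARCA4 (ENSG00000127616.20, chromosome 19 from 10960932 to 11079426, plus strand) had 3842, 3897 and 3601 normalized counts in Control sh and 9236, 10184 and 10016 in VprBP sh. All VprBP sh samples lay far above all Control sh samples. The means were 3780 ± 158 and 9812 ± 506 (SD, n = 3), a log2 fold change of 1.38 (SE 0.080, adjusted p = 2.7e-07 from edgeR), which is 2.6-fold. SMARCA2 (ENSG00000080503.24, chromosome 9 from 1980290 to 2193624, plus strand), the alternative ATPase, had 1467, 1668 and 1516 normalized counts in Control sh and 1718, 1760 and 1844 in VprBP sh. The groups did not overlap, but the distance between them was small, with a log2 fold change of 0.19 (95% interval 0.0060 to 0.38, adjusted p = 0.0575 from edgeR). The interval of SMARCA4, 1.20 to 1.56, did not reach that of SMARCA2. SMARCA2 passed without VprBP sh replicate 1 (adjusted p = 0.0314 from edgeR), with at least 10 counts required in every sample (0.0482) and with library size as the only scaling (0.00163), and its adjusted p-value reached 0.494 with DESeq2.

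Core subunits hold the ATPase and the targeting subunits together and contact the nucleosome. SMARCB1 (ENSG00000099956.20, chromosome 22 from 23786931 to 23838009, plus strand), whose loss defines rhabdoid tumours, had 1590, 1645 and 1686 normalized counts in Control sh and 2690, 2834 and 2845 in VprBP sh. It rose by a log2 fold change of 0.77 (SE 0.074, adjusted p = 9.23e-06 from edgeR), or 1.70-fold, with the groups well apart. SMARCC1 (ENSG00000173473.11, chromosome 3 from 47585269 to 47782106, minus strand), a scaffold of the core, had 2393, 2848 and 2954 normalized counts in Control sh and 3960, 3996 and 3967 in VprBP sh. Its VprBP sh values were nearly equal, while Control sh replicate 1 was lower than the other two, and the log2 fold change was 0.54 (SE 0.093, adjusted p = 0.000454 from edgeR). SMARCC2 (ENSG00000139613.12, chromosome 12 from 56162359 to 56189567, minus strand), its paralogue, had 2892, 3071 and 3025 normalized counts in Control sh and 2942, 3098 and 3238 in VprBP sh. These ranges overlapped, and the log2 fold change of 0.046 (95% interval -0.13 to 0.22, adjusted p = 0.598 from edgeR) changed sign with the scaling, to -0.051 with TMM factors and -0.075 with DESeq2. With library size as the only scaling it was 0.26 and passed (adjusted p = 0.012 from edgeR).

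SMARCD proteins link the core to transcription factors, and their genes moved in different directions. SMARCD1 (ENSG00000066117.15, chromosome 12 from 50085200 to 50100707, plus strand) had 1584, 1771 and 1817 normalized counts in Control sh and 1147, 1169 and 1166 in VprBP sh. It was the one member that fell, with every VprBP sh value below every Control sh value and a log2 fold change of -0.57 (SE 0.085, adjusted p = 0.000182 from edgeR). SMARCD3 (ENSG00000082014.17, chromosome 7 from 151238764 to 151277896, minus strand), known for its part in heart and muscle development, was read by 42, 33 and 30 counts in the Control sh samples and by 82, 108 and 132 in the VprBP sh samples. Normalized, the means were 37.7 ± 10.2 and 102 ± 10.3 counts (SD, n = 3), and the groups did not overlap. The log2 fold change of 1.44 (SE 0.24, adjusted p = 0.000427 from edgeR) carried the largest standard error of the 10 members, its counts being the lowest, and leaving out 1 sample at a time moved it between 1.26 (Control sh replicate 3 left out) and 1.66 (Control sh replicate 1 left out).

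ARID1A and ARID1B are the large DNA-binding subunits that define canonical BAF, and each complex holds only 1 of them. ARID1A (ENSG00000117713.21, chromosome 1 from 26693236 to 26782104, plus strand), a frequent target of inactivating mutations in cancer, had 3810, 3208 and 3144 normalized counts in Control sh and 3966, 4360 and 4145 in VprBP sh. Control sh replicate 1 lay close to the lowest VprBP sh sample. The log2 fold change was 0.30 (SE 0.094, adjusted p = 0.0167 from edgeR), and it missed the threshold with TMM factors (adjusted p = 0.0944), with DESeq2 (adjusted p = 0.167), with replicates 2 and 3 summed (adjusted p = 0.229) and without Control sh replicate 2 or 3 or VprBP sh replicate 2 (adjusted p = 0.0856, 0.0863 and 0.0737 from edgeR). ARID1B (ENSG00000049618.24, chromosome 6 from 156776020 to 157210779, plus strand) had 1786, 1609 and 1572 normalized counts in Control sh and 2245, 2368 and 2365 in VprBP sh. It rose by 0.49 on the log2 scale (SE 0.082, adjusted p = 0.000387 from edgeR) with the groups apart. PBRM1 (ENSG00000163939.18, chromosome 3 from 52545352 to 52685917, minus strand), the subunit of PBAF with a row of bromodomains that bind acetylated histones, had 948, 850 and 940 normalized counts in Control sh and 1655, 1455 and 1385 in VprBP sh. It rose 1.64-fold, a log2 fold change of 0.71 (SE 0.10, adjusted p = 0.000113 from edgeR), and all VprBP sh samples lay above all Control sh samples.

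The remaining subunits of the complexes were read from a list of 19 genes, of which 18 were in the table and 17 were tested. Of these, 8 were higher and 9 lower in VprBP sh, and 4 were called against 46.4% of all genes (23.5% of the 17). At any fold 13 passed the adjusted p-value, 8 higher and 5 lower, where 76.4% of all genes passed it, a like share. BRD7, a bromodomain subunit of PBAF, had means of 1710 ± 80.7 and 3450 ± 206 normalized counts (SD, n = 3) and rose by 1.01 on the log2 scale (adjusted p = 2.65e-06 from edgeR). BICRAL, of the non-canonical form, rose by 1.04 (adjusted p = 9.74e-06 from edgeR). BRD9, which defines the non-canonical form, fell by 1.28 on the log2 scale, from 2858 ± 24.2 to 1175 ± 41.9 normalized counts (SD, n = 3, adjusted p = 2.76e-07 from edgeR). BCL7C, one of the BCL7 proteins near the ATPase, fell by 1.16 (adjusted p = 1.19e-05 from edgeR), whereas BCL7B had a log2 fold change of 0.97, just under 2-fold. The calls of BRD7 and BICRAL rest on the scaling, because their log2 fold changes were 0.92 and 0.94 with TMM factors and 0.89 and 0.92 with DESeq2, and also fell under 1 without VprBP sh replicate 1 (0.96 and 0.9999). BRD7 was under 1 as well without Control sh replicate 1 (0.97) and with no filter on low counts (0.99).

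The PBAF genes did not move as a block. PBRM1, ARID2 (log2 fold change 0.67, adjusted p = 0.000177) and BRD7 were higher in VprBP sh, and PHF10, a PHD finger subunit, was lower at -0.87 (adjusted p = 0.000172), all from edgeR. In the non-canonical form BRD9 and BICRAL were called in opposite directions, and BICRA had a log2 fold change of -0.076 (adjusted p = 0.459 from edgeR). SMARCD2, the most abundant SMARCD gene, had a log2 fold change of 0.20 (adjusted p = 0.0444 from edgeR). ACTB, whose actin product sits on the ATPase, had -0.42 (adjusted p = 0.00422 from edgeR). DPF1, a neural BAF subunit, had 0.71 (adjusted p = 0.015 from edgeR) at only 81.3 and 133 normalized counts in the group means, and DPF3, with 5 to 14 counts per sample, was not tested.

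**Figure D2:**
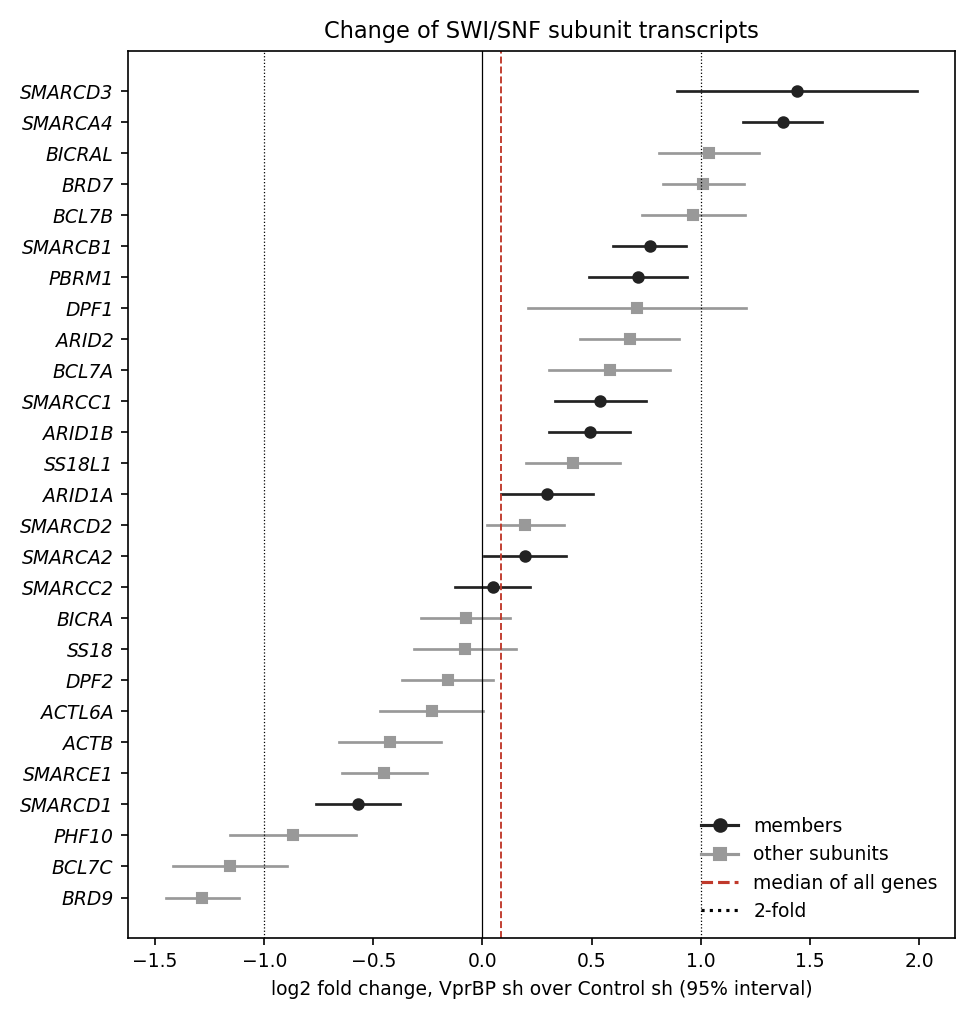
Log2 fold change of VprBP sh over Control sh with its 95% interval for the 10 members (black circles) and 17 other subunits tested (grey squares), with dotted lines at 2-fold and a dashed line at the median of all genes, 0.08. SMARCD3 and SMARCA4 stand at the top at 1.44 and 1.38, and BRD9 at the bottom at -1.28.

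Which paralogue supplied each slot was next compared within samples, because a share within a sample does not depend on how libraries are scaled. Counts were divided by the merged exon length of each gene, and a paralogue's share is its percentage of the slot's sum. SMARCA4 supplied 76.2%, 74.1% and 74.4% of the ATPase slot in Control sh and 86.8%, 87.6% and 86.9% in VprBP sh, leaving SMARCA2 25.1% and 12.9% in the group means. The share of SMARCA4 was thus 12.2 percentage points higher, and the summed level of both ATPases went from 324 ± 13 to 723 ± 35 normalized counts per kb (SD, n = 3). SMARCC1 supplied 49.9%, 52.8% and 54.0% of its slot in Control sh and 61.8%, 60.8% and 59.6% in VprBP sh, a difference of 8.52 percentage points with no overlap. The size of a share in any slot depends on the length used. Per kb of the canonical transcript, SMARCC2 was above SMARCC1 in Control sh, with means of 589 and 430 normalized counts. In VprBP sh the means were 608 for SMARCC2 and 626 for SMARCC1.

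In the SMARCD slot, SMARCD1 went from 44.3%, 44.04% and 45.5% to 31.7%, 31.7% and 31.4%, a difference of -13.0 percentage points. SMARCD2 took up most of this, with a mean of 54.4% in Control sh and 65.6% in VprBP sh, and SMARCD3 went from 0.985% to 2.76%. The slot as a whole had 788 ± 50 and 749 ± 10 normalized counts per kb (SD, n = 3). ARID1A supplied 86.0%, 85.2% and 85.2% of the ARID1 slot in Control sh and 83.6%, 84.1% and 83.5% in VprBP sh, a difference of -1.73 percentage points, or -3.01 when counts were not divided by length. In each of the 6 shares tested, the groups did not overlap and the exact two-sided permutation test gave p = 0.1 (adjusted p = 0.1 over the 6), the smallest that 3 samples against 3 allow. The groups also did not overlap in 79.5% of all single genes tested, and shares of other gene pairs were not worked out for comparison. Shares of the SMARCD slot are parts of a single sum and so depend on each other. Paralogues of a slot shared 0 stretches of 50 bases, the read length of the study, in their GENCODE 44 transcripts, a check added after the shares were seen. A bulk transcript level does not tell how the proteins were shared among complexes.

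**Figure D3:**
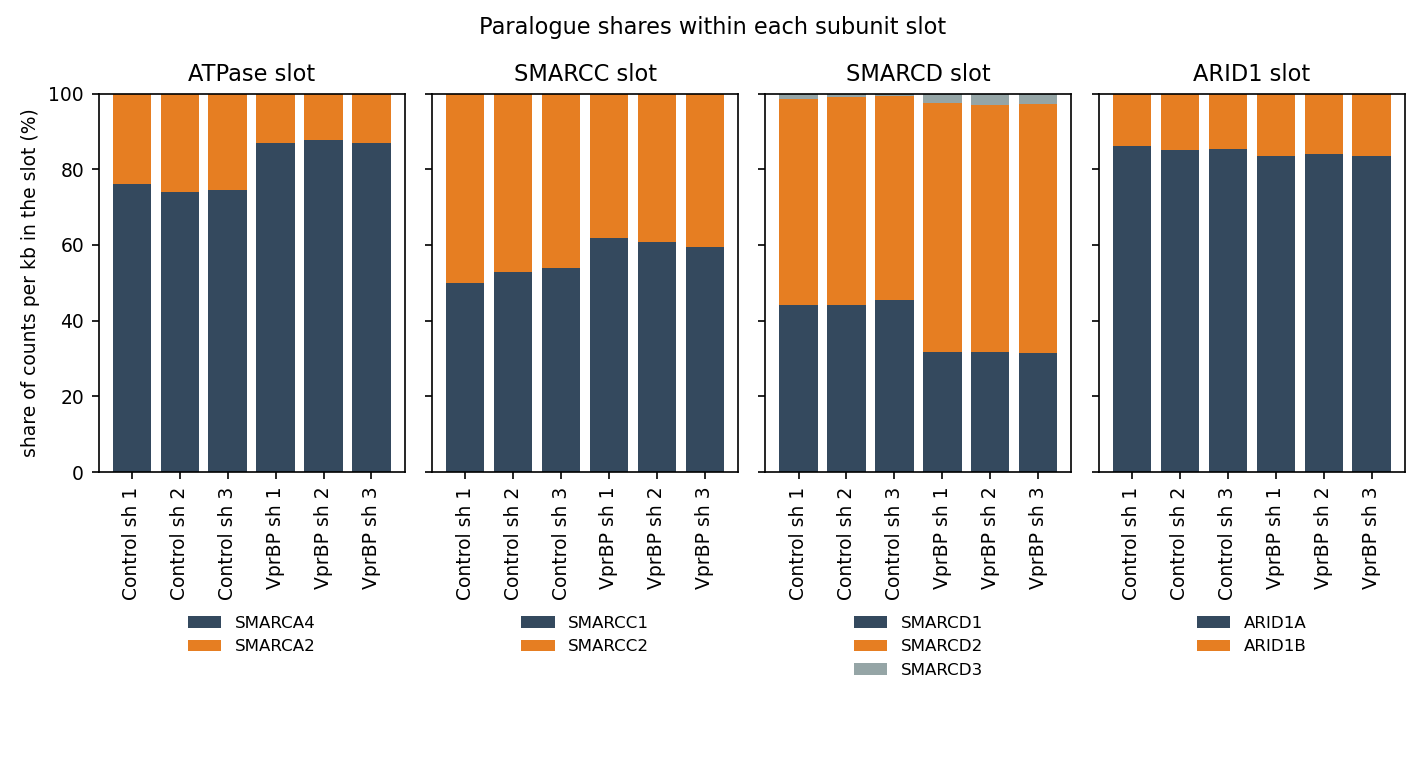
Stacked bars give the percentage of counts per kb that each paralogue supplied to its slot in each of the 6 samples. SMARCA4 goes from about 75% (mean 74.9%) to 87.1% of the ATPase slot, SMARCD1 from 44.6% to 31.6% of the SMARCD slot, and the ARID1 slot changes least.

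Levels of different genes were compared per kb of merged exons. In Control sh the highest means were those of SMARCC1 (358 normalized counts per kb), SMARCD1 (352) and SMARCC2 (326), whose samples overlapped from each to the next. SMARCA4 (243) and ARID1A (213) followed, also with overlapping samples, then SMARCB1 (99.2) and PBRM1 (94.6), which overlapped as well, and SMARCA2 (81.3), ARID1B (36.0) and SMARCD3 (7.66), each apart from the one before. In VprBP sh, SMARCA4 had the highest level (630), followed by SMARCC1 (521), SMARCC2 (337), ARID1A (261), SMARCD1 (237), SMARCB1 (169), PBRM1 (155), SMARCA2 (93.0), ARID1B (50.6) and SMARCD3 (20.7). All neighbours in this order were apart except SMARCB1 and PBRM1. The order depends on the length used. With the canonical transcript in place of merged exons, SMARCA4 ranked first in both groups, at 678 and 1759 normalized counts per kb, while SMARCC1 went from rank 1 to rank 4 in Control sh.

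Members were also set beside the genes around them, since the values of neighbours show whether a subunit gene moved alone. Of 178 protein-coding genes tested within 500 kb of a member, 42.1% were called, against 44.4% of all 13885 protein-coding genes tested. Around SMARCA4, on the short arm of chromosome 19, 26 of 34 neighbours were called, 23 higher and 3 lower, and their median log2 fold change was 1.43 beside 1.38 for SMARCA4 itself. The median over chromosome 19, added after these values were seen, was 0.52. Around SMARCB1 on chromosome 22 the median of 14 neighbours was 0.80 beside 0.77 for the member, and around SMARCC1 that of 11 neighbours was 0.71 beside 0.54. Within 250 kb the medians were 1.24 over 12 genes for SMARCA4, 0.57 over 9 for SMARCB1 and 0.71 over 7 for SMARCC1. Medians over chromosomes 22 and 3, also added afterwards, were 0.55 and -0.057. SMARCC2, at 0.046, lay among 41 neighbours with a median of -0.13.

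Other members differed more from the median of their neighbours within 500 kb. SMARCD3 was at 1.44 where 15 neighbours had a median of 0.09, SMARCD1 at -0.57 where 15 had a median of -0.0024, and PBRM1 at 0.71 where 26 had a median of 0.11. For ARID1A the value was 0.30 beside -0.14 over 18 neighbours, and for ARID1B 0.49 beside -0.22 over 3. These distances depend on the window, since the median around SMARCD3 was 0.61 over 23 genes within 1000 kb and that around ARID1B was 0.36 over 2 genes within 250 kb. SMARCA2 had a single neighbour tested, at 0.76. Individual neighbours ranged widely, from -7.97 to 4.97 around SMARCA4 and from -3.03 to 8.23 around PBRM1. Why members and neighbours had like values in some windows was not tested.

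**Figure D4:**
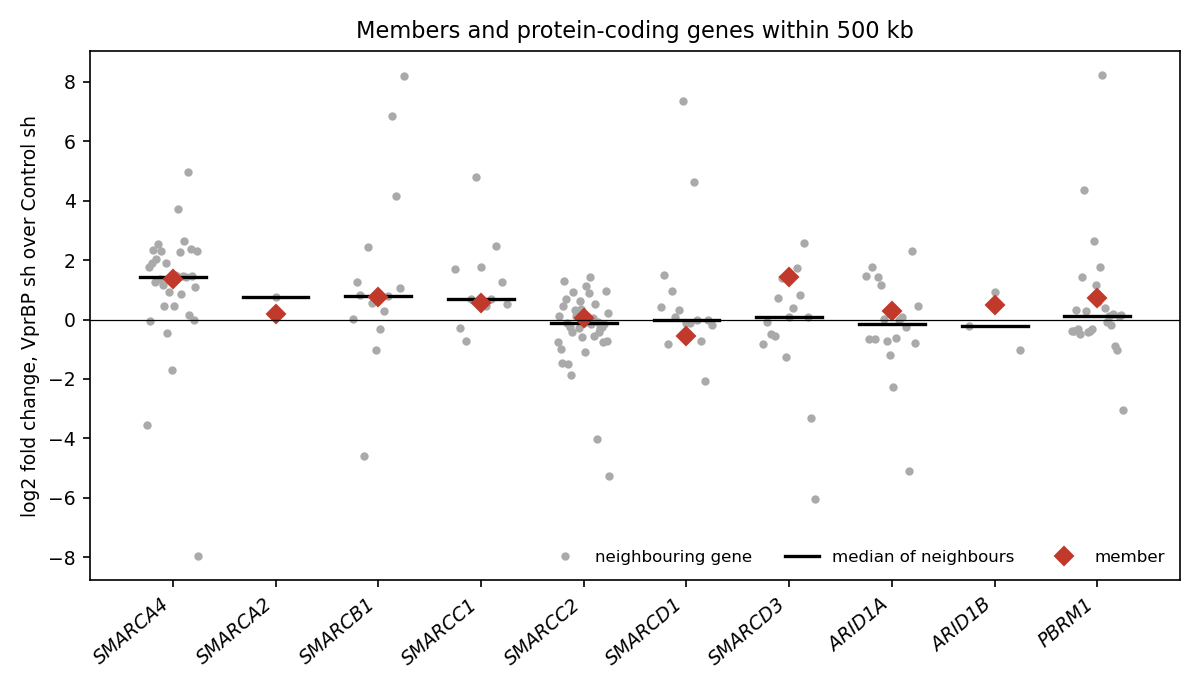
Log2 fold change of each member (red diamond) beside the protein-coding genes tested within 500 kb (grey points, in order of their position around the member and not to scale), with a black bar at the median of the neighbours. SMARCA4, SMARCB1 and SMARCC1 lie near the bars of their windows, at 1.43, 0.80 and 0.71, and SMARCD3 lies above its bar.

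In GENCODE 44, 9 of the 10 members overlap another gene, SMARCD1 being the exception, and 3 of them overlap a gene that was tested, on the opposite strand in each case. SMARCC2 overlaps MYL6 (5319 and 4322 normalized counts in the group means), SMARCD3 overlaps CHPF2 (2343 and 1576), and PBRM1 overlaps GNL3 (1616 and 1290) and UQCC5 (34.2 and 76.1). These genes were named after their values were seen. The study's methods describe a strand-specific KAPA kit and the labels a SMARTER kit. The strand setting of the counting is not given in the sources used here, and without strand the reads of a member and of its partner cannot be told apart in the shared stretch. This bears most on SMARCD3, whose 37.7 and 102 normalized counts are small beside those of CHPF2. CHPF2 had a log2 fold change of -0.57 (adjusted p = 0.00318 from edgeR), and the part of its reads in the SMARCD3 counts was not tested.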

How the data were processed

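RNA-seq libraries of 3 Control sh and 3 VprBP sh samples were grouped by their titles. Per the study's methods, the authors aligned single-end reads to hg38 with STAR and quantified them per gene; the labels name Partek. The deposited values are estimated counts, not normalized, and 59.4% of them are whole exactly as written, with no tolerance. The kit is KAPA in the methods and SMARTER in the labels.

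Estimated counts were rounded and tested with edgeR 4.0.16 in R 4.3.3 by its quasi-likelihood test, with upper quartile factors (quantile 0.75) and edgeR's filter on low counts (a minimum of 10), on all 6 samples without a replicate block. This test stands in for Partek's Gene Specific Algorithm. P-values were adjusted over 16756 genes by the Benjamini-Hochberg method. SEs were derived from the F statistic and the log2 fold change. Normalized counts are counts over the scaled library size. Positions and lengths came from GENCODE 44 and promoters from RefSeq. Protein sequences were not used here. On simulated data of 16416 genes, 200 of them changed by 2 on the log2 scale, edgeR recovered 100% with 0 false calls. In the study's data 46.4% of genes were called, so the simulation does not measure false calls or the effect of scaling there.

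Named genes are the 10 members, DCAF1, markers, called genes of the other lists with the 3 largest uncalled ones of each, SMARCD2 and ACTB. ARID2, BICRA and DPF3 were named besides, after their values were seen. The members and lists were chosen with earlier results of these data known. Alternatives were TMM, library size alone, DESeq2 1.42.0, limma-voom (limma 3.58.1), other filters, a replicate block, a test against 2-fold, leaving out each replicate, summing replicates 2 and 3, and unrounded counts.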

Additional observations from a re-analysis of the deposited data

How the results depend on the processing

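SMARCA4 and SMARCD3 were the members called in edgeR with upper quartile factors and in each of the 16 alternatives. The number of members past the adjusted p-value at any fold, 8, ran from 7 to 10. SMARCC2 changed sign, to -0.051 with TMM factors and -0.075 with DESeq2, and no other member did. The median over all genes moved from 0.083 to -0.014 with TMM factors, -0.038 with DESeq2 and 0.29 with library size alone, and that of the members from 0.52 to 0.42, 0.39 and 0.73. Of the 4 other SWI/SNF subunits called, 2 were left with TMM factors, 2 with DESeq2 and 1, BRD9, in the test against a 2-fold change, and the cause was not tested. With each replicate left out in turn the number was 4, although not always of the same genes, since BRD7 and BICRAL were not called without VprBP sh replicate 1, nor BRD7 without Control sh replicate 1. BCL7C was not called with library size alone (-0.95). The 3 other remodeller ATPases called ran from 2 to 3. With the replicate number as a block, 2 members were called and 8 passed the adjusted p-value, as without it. Same-numbered samples did not deviate together (correlations of -0.173, -0.0539 and -0.121 for replicates 1, 2 and 3), so the shared numbers were not taken as pairs. Differences between paralogue shares kept their sign in all 10 alternatives each, from 11.8 to 13.8 percentage points for SMARCA4, 7.36 to 9.42 for SMARCC1 and -13.3 to -11.1 for SMARCD1. The share of neighbouring genes called was 39.6% within 250 kb and 47.7% within 1000 kb. Low counts limit SMARCD3 most.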

Other observations

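ATPases of other remodelling families were read from a list of 20 genes, of which 19 were tested. In VprBP sh 13 were higher and 6 were lower. Their median was 0.20 on the log2 scale beside 0.083 over all genes, and 3 were called, which is 15.8% beside 46.4%. CHD9, of the chromodomain family, had means of 607 ± 90.9 and 1813 ± 68.9 normalized counts (SD, n = 3) and rose by 1.58 on the log2 scale (adjusted p = 1.43e-06 from edgeR). CHD1, of the same family and linked to transcribed chromatin, rose by 1.08 (adjusted p = 2e-05 from edgeR), which was 0.98 with TMM factors, 0.96 with DESeq2 and 0.96 without VprBP sh replicate 1 and so under 2-fold there. SMARCA1, an ISWI ATPase, fell by 1.84 on the log2 scale, from 811.7 ± 109.5 to 226 ± 12.2 normalized counts (SD, n = 3, adjusted p = 8.98e-07 from edgeR), whereas its paralogue SMARCA5 had a log2 fold change of 0.20 (95% interval -0.047 to 0.44, adjusted p = 0.123 from edgeR). SMARCA5 was named after its values were seen. Among the genes under 2-fold, EP400 had a log2 fold change of -0.87, SMARCAL1 0.74 and SRCAP 0.72.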
